A study of Arabidopsis thaliana with 8 samples.

Results

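Vacuolar processing enzymes (VPEs) are plant cysteine proteases of the legumain family, and 3 of their genes were followed here over every array of the series: ALPHA-VPE (AT2G25940, probe set 266849_at), BETA-VPE (AT1G62710, probe set 262644_at) and GAMMA-VPE (AT4G32940, probe set 253358_at). The 3 genes were named as a gene family, with no threshold on their signal but with earlier results of these data known, out of 13286 genes that had a probe set of their own on the array. Total RNA of Arabidopsis thaliana cell cultures was labelled with biotin and hybridised to 8 expression arrays. All cultures had the Landsberg erecta background (Ler, stock code NW20) and grew at 24 °C with sucrose on Murashige and Skoog medium, to which NAA, a synthetic auxin, and kinetin, a cytokinin, were added. Of the arrays, 4 were titled fum and 4 met, numbered 1 to 4 within each group. Their labels share every other entry, expand neither name and mark neither group as a control, so each difference is fum minus met. No label states whether a group's arrays stem from separate cultures, so the p-values reflect spread among these 8 samples, and that spread may be technical. No age, passage or number of cells is given for the cultures.

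VPEs cut proteins after asparagine and, less readily, aspartate residues. They are made as inactive precursors that mature in the acid lumen of the vacuole, and there they process other vacuolar proteins. In Arabidopsis they account for an activity that resembles that of the animal protease caspase-1, and leaves of mutants without VPEs do not form the lesions that a fungal toxin otherwise provokes. ALPHA-VPE and GAMMA-VPE are known from vegetative organs, where ageing and wounding raise them. BETA-VPE is known chiefly from seeds, where it matures storage proteins, and DELTA-VPE from the developing seed coat.

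None of the 3 VPE genes passed the test between groups, although ALPHA-VPE had a geometric mean signal 1.91 times higher in fum and GAMMA-VPE a mean slightly higher in met. The test was limma's moderated test on log2 signal, with p-values adjusted by Benjamini-Hochberg over all 13647 probe sets tested and a threshold of 0.05. In that fit 351 probe sets passed, 2.57% of those tested, with 200 higher in fum (1.47%) and 151 lower (1.11%). That count lay between 112 and 175 when fum replicate 1, 3 or 4 or met replicate 3 or 4 was left out. At an unadjusted limma p below 0.05, 2 of the 3 VPE genes were called, 1 in each direction, against 17.9% of all probe sets tested (8.87% higher in fum and 8.98% lower). The fum and met arrays overlapped in each of the 3 genes, whereas 12.4% of probe sets tested had groups that did not overlap. All 3 genes passed the filter on dim probe sets, which kept those whose mean log2 signal exceeded the 40th percentile (21.1 in signal units).

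**Figure D1:**
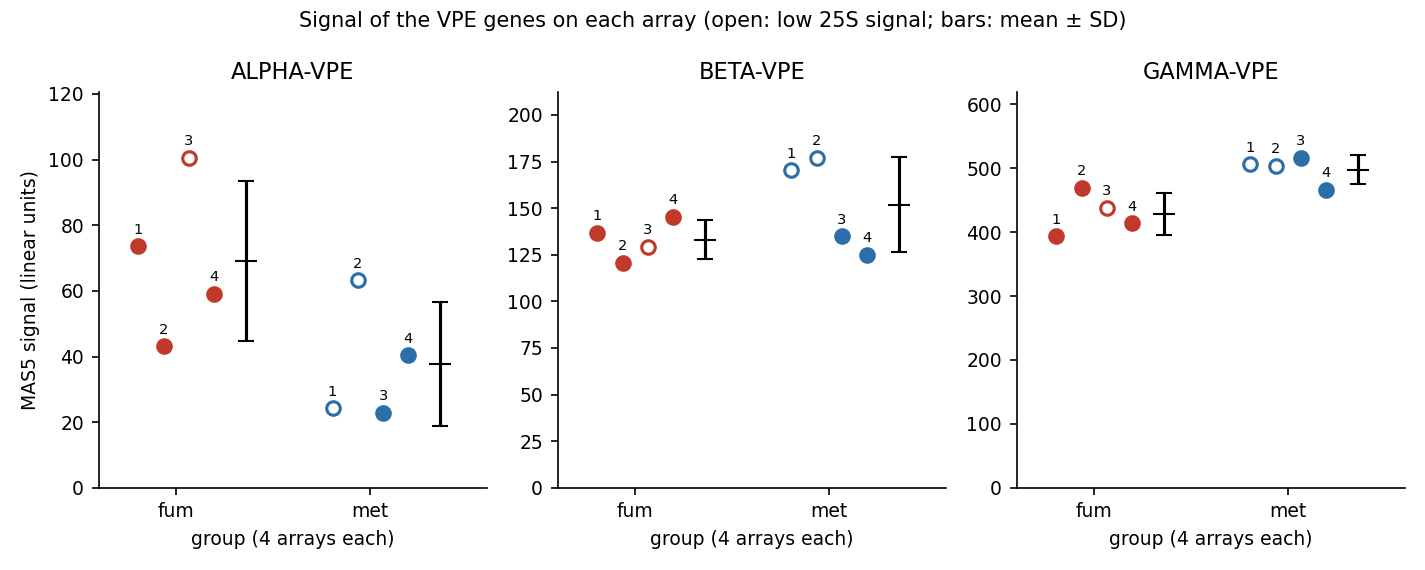
MAS5 signal (linear units, vertical axes from 0 and different for each gene) of ALPHA-VPE, BETA-VPE and GAMMA-VPE on each array, numbered by replicate, with open circles for the 3 arrays of low 25S ribosomal RNA signal and bars for the mean ± SD of 4 arrays. ALPHA-VPE spreads widely in both groups, met replicates 1 and 2 stand above the other arrays for BETA-VPE, and 15 of 16 fum and met pairs have the higher GAMMA-VPE signal in met.

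ALPHA-VPE, one of the vegetative forms, gave signals of 73.6, 43.1, 100.5 and 59.2 on fum replicates 1 to 4. On met replicates 1 to 4 it gave 24.3, 63.3, 22.8 and 40.4. Fum replicate 3 was the highest of all 8 arrays and met replicates 3 and 1 the lowest, and the groups met in the middle, where met replicate 2 lay above fum replicates 4 and 2. The fum array had the higher signal in 14 of the 16 pairs of a fum with a met array. Mean signals were 69.1 ± 24.4 in fum and 37.7 ± 18.8 in met (SD, n = 4), and the ratio of geometric means was 1.91, with a 95% confidence interval of 1.14 to 3.20. On the log2 scale the difference was 0.93 (SE 0.34, limma adjusted p = 0.178, unadjusted p = 0.0185). An exact permutation test of the log2 signals gave p = 0.114 (two-sided), and 0.0286 is the smallest value such a test can reach with 2 groups of 4. A difference of at least this size, in either direction, was found in 1.09% of probe sets tested, and 10.4% had a smaller limma p.

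The arrays of each group differed widely in ALPHA-VPE signal. The spread of log2 ALPHA-VPE signals within groups was 0.61 (residual SD), larger than that of 97.4% of the 500 probe sets closest to it in mean signal. Its coefficient of variation was 35.25% in fum and 50.0% in met, and the highest array stood 4.41-fold above the lowest. Met replicates 1 and 3 lay only a little above the filter signal of 21.1, where MAS5 signals are noisy. With 16 added to each signal before the logarithm the difference was 0.68 (limma adjusted p = 0.175). Leaving out 1 array at a time gave values from 0.73 without fum replicate 3 to 1.23 without met replicate 2, with adjusted p from 0.0633 to 0.357.

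BETA-VPE, the seed form, gave signals of 136.9, 120.7, 129.3 and 145.5 on fum replicates 1 to 4. On met replicates 1 to 4 it gave 170.2, 176.9, 135.0 and 125.1. Met replicates 2 and 1 were the highest of the 8 arrays, while the other 2 met arrays lay within the range of the fum arrays. Means were 133.1 ± 10.6 in fum and 151.8 ± 25.6 in met (SD, n = 4). The log2 difference was -0.18 (SE 0.13, 95% confidence interval -0.47 to 0.12, limma adjusted p = 0.533). Met arrays had the higher signal in 11 of 16 pairs, and the exact permutation p was 0.286 (two-sided). Within groups its log2 signals spread by 0.19, more than in 50.6% of the 500 probe sets nearest in mean signal.

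The small BETA-VPE difference moved with single met arrays. Without met replicate 4 it was -0.27, without met replicate 2 it was -0.099 and without met replicate 1 it was -0.12. Met replicates 1 and 2 belonged to the 3 with low 25S ribosomal RNA control signal, described below, and the third of these, fum replicate 3, gave 129.3. Among the 5 arrays with high 25S signal the BETA-VPE difference was 0.044 (SE 0.13), against -0.42 (SE 0.18, limma adjusted p = 0.393) among the 3 low ones. With limma's array weights, which come from each array's spread about the group means and not from the controls, it was -0.0088. Markers of seed cells were dim on all arrays: the 3 of 6 that were measured, an oleosin gene (AT3G01570), PAP85 and AT4G36700, all fell below the filter, with summed signals of 8.2 to 43.2 in fum and 27.9 to 34.5 in met. The only measured seed storage protein gene of 9, AT1G03890, read 7.8 to 22.1 in fum and 2.3 to 22.5 in met.

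GAMMA-VPE, the other vegetative form, gave signals of 393.7, 469.2, 438.4 and 413.9 on fum replicates 1 to 4. On met replicates 1 to 4 it gave 506.1, 503.6, 516.0 and 465.9. Fum replicate 2 and met replicate 4, at 469.2 and 465.9, were the only arrays that crossed between the groups, and met was higher in 15 of 16 pairs. Means were 429 ± 32.55 in fum and 498 ± 22.0 in met (SD, n = 4), which is 1.16-fold higher in met. The log2 difference was -0.22 (SE 0.088, 95% confidence interval -0.41 to -0.024, limma adjusted p = 0.225, unadjusted p = 0.0308), and the exact permutation p was 0.0571 (two-sided). A smaller limma p was found in 13.7% of probe sets tested. The log2 signals spread by 0.090 within groups, and only 12.8% of the 500 probe sets nearest in mean signal spread less. Leaving out 1 array at a time kept the difference between -0.26 and -0.18, with adjusted p from 0.175 to 0.419. The only measured marker of green leaf cells, RCA, read 383 to 464 in fum and 470.5 to 588 in met and so had the same sign as GAMMA-VPE (log2 -0.29, limma adjusted p = 0.155), and its part in the GAMMA-VPE values was not tested. In bulk RNA of this kind, fewer cells of a type and less RNA per cell cannot be told apart.

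DELTA-VPE (AT3G20210, probe set 257130_at), the remaining Arabidopsis family gene, was below the filter and therefore not tested. It read 8.6, 19.0, 7.8 and 11.5 on fum replicates 1 to 4 and 15.1, 11.4, 14.0 and 16.3 on met replicates 1 to 4. All 8 values lay below 21.1, so no order of the groups is read from them.

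**Figure D2:**
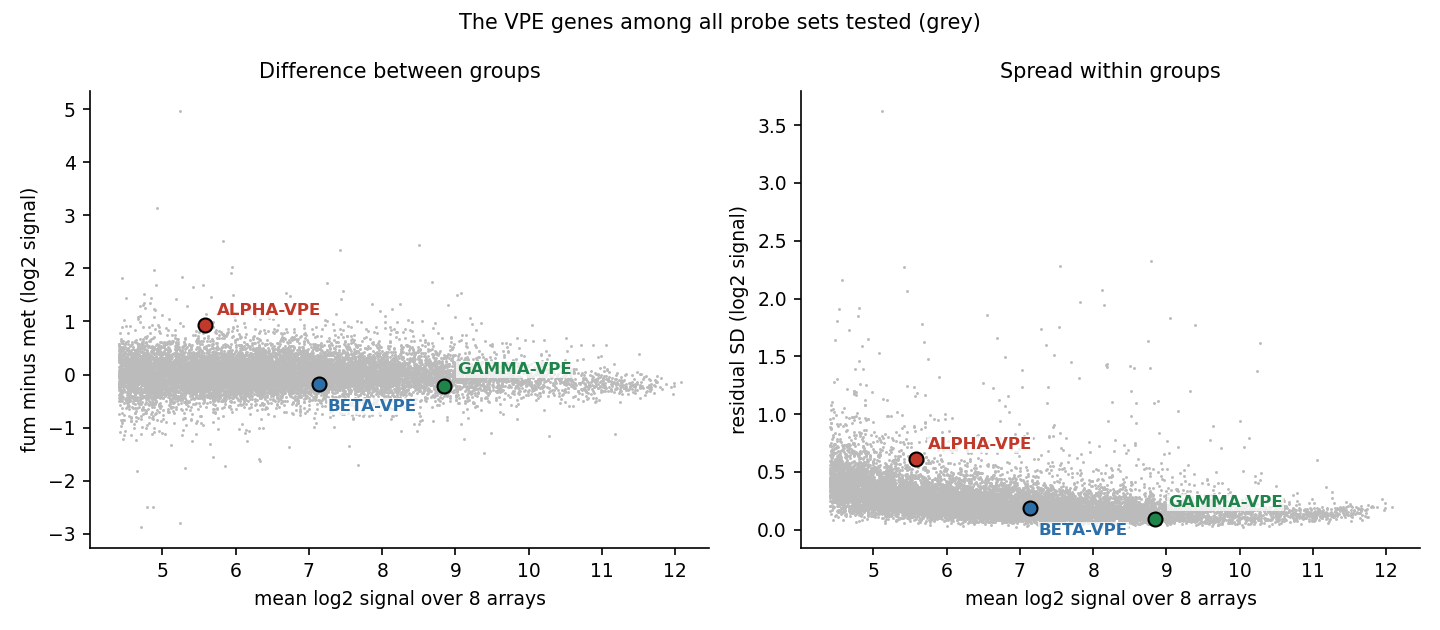
Each grey point is 1 of 13647 probe sets tested, placed by its mean log2 signal over 8 arrays (horizontal axes), with the fum minus met difference in log2 signal on the left and the residual SD within groups, also in log2 signal, on the right. ALPHA-VPE lies high on both panels, with a difference of 0.93 and a residual SD of 0.61, while GAMMA-VPE has a difference of -0.22 and a residual SD of 0.090.

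The array controls differed among arrays and not cleanly by group. Signal from the 25S ribosomal RNA probe set was low on 3 arrays, namely fum replicate 3 (157.6) and met replicates 1 (824) and 2 (1305), and ranged from 2806 to 4491 among the remaining 5. Actin control signal was 12.01 times higher at the 3′ than at the 5′ probe set in met replicate 1, against 1.92 to 2.39 times elsewhere, and median signals ran from 33.1 to 41.5. Fum replicate 3 was also the array with the highest ALPHA-VPE signal. Among the 5 arrays of high 25S signal, ALPHA-VPE read 43.1 to 73.6 on 3 fum arrays and 22.8 to 40.4 on 2 met arrays. These did not overlap, and the same was true of 38.7% of probe sets tested in that class. Its difference was 0.92 (SE 0.41) there and 1.36 (SE 0.55) among the 3 low arrays, with limma adjusted p of 0.352 and 0.369. The low class holds a single fum array, which is taken to vary like the others in that fit. GAMMA-VPE had differences of -0.21 and -0.20 in the high and low classes (adjusted p 0.469 and 0.65), as large as over all arrays. Without met replicate 1, ALPHA-VPE had a difference of 0.77 and GAMMA-VPE -0.21.

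**Figure D3:**
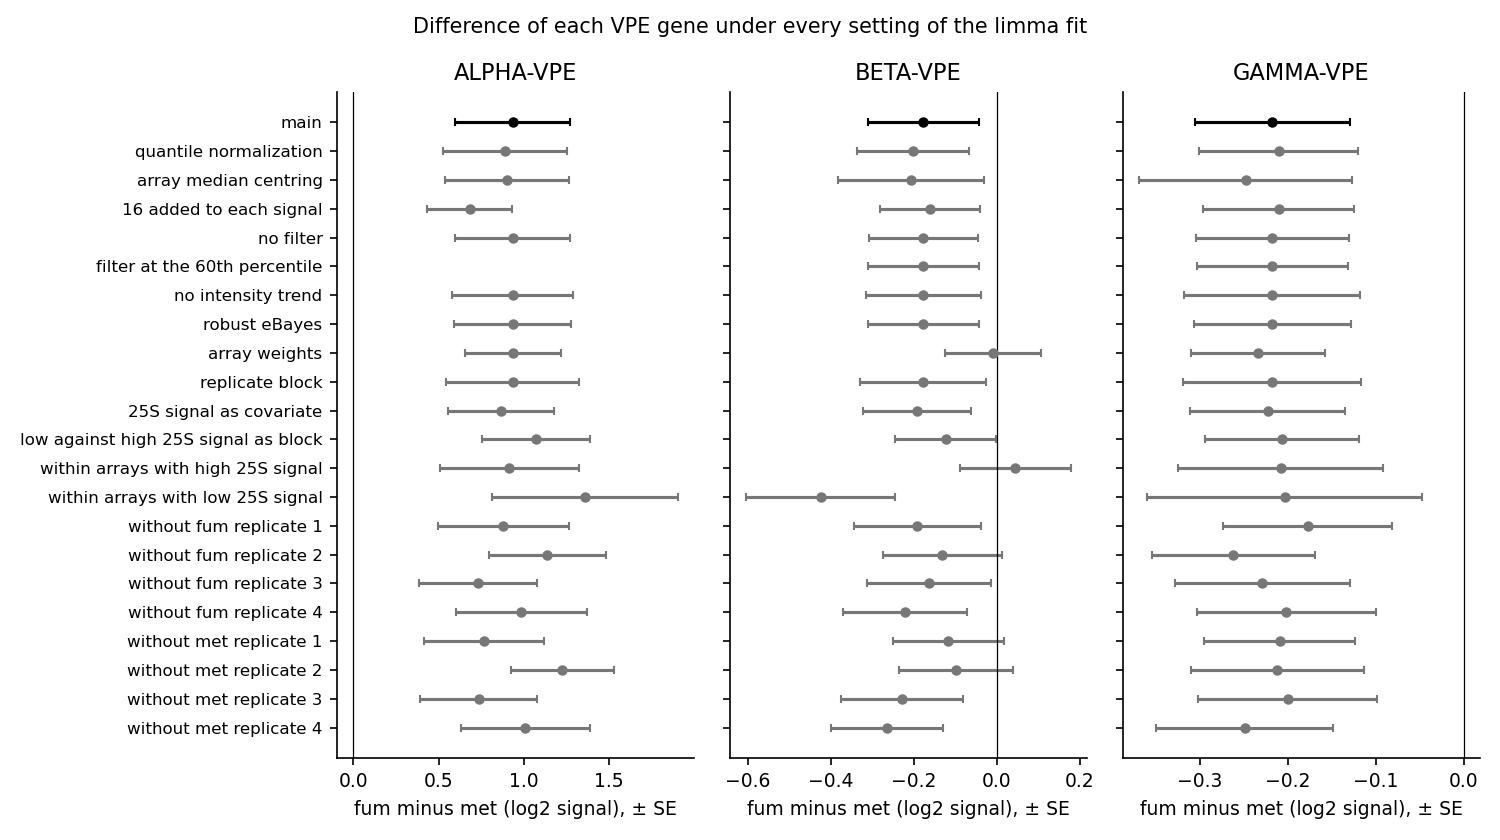
Fum minus met difference in log2 signal (points, with bars of 1 SE) of each VPE gene in the limma fit as reported, in black, and under each other setting, in grey, on horizontal axes that differ between panels. ALPHA-VPE stays above 0 in all fits (0.68 to 1.36) and GAMMA-VPE below 0 (-0.26 to -0.18), while BETA-VPE runs from -0.42 to 0.044.

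The 3 genes were next compared with one another over the arrays. Within an array, the log2 ratio of ALPHA-VPE to GAMMA-VPE was 1.15 higher in fum than in met and was higher in fum in 15 of 16 pairs. The ratio of ALPHA-VPE to BETA-VPE was 1.11 higher in fum, also in 15 of 16 pairs, and that of BETA-VPE to GAMMA-VPE was 0.040 higher, in 9 of 16 pairs. Ratios of this kind describe unequal differences between genes and were not tested, since the genes were chosen with earlier results known.

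Over the 8 arrays ALPHA-VPE and GAMMA-VPE had a Pearson r of -0.70 (exact permutation p = 0.0513, 0.154 adjusted over 3 pairs) and a Spearman rho of -0.74 (exact permutation p = 0.0458, adjusted 0.138). These permutations ignored the groups, so r and its p also carry the group differences, which were opposite in sign for these 2 genes. The relation did not pass the adjusted threshold, and r kept its sign but was weaker under each alternative. Without met replicates 3 and 1, the arrays farthest from the ALPHA-VPE median, r was -0.40 (exact permutation p = 0.444), and for deviations from the group means it was -0.37. After centring each array on its median it was -0.27. ALPHA-VPE and BETA-VPE had an r of -0.13 and a rho of 0.071 (exact permutation p = 0.76 and 0.882, adjusted 0.76 and 0.882). BETA-VPE and GAMMA-VPE had an r of 0.35 and a rho of 0.14 (exact permutation p = 0.398 and 0.752, adjusted 0.597 and 0.882). Without the 2 arrays farthest from the median of the first gene, these r values became 0.26 and -0.46. Correlations were not computed within the 25S classes, which held only 5 and 3 arrays.

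Genes with a signal pattern most like that of each VPE gene were found by the Pearson r of log2 signal over the 8 arrays among 7443 other genes tested. They are the 5 highest of that many, chosen on these same 8 arrays, so the size of r is a description. For the same reason they largely had to share the VPE gene's sign between groups, its deviations and its highest or lowest arrays. For ALPHA-VPE they were AT5G11350 (r 0.983, rho 0.976), AT4G32640, which encodes a Sec24-like coat protein of the secretory pathway (r 0.977), AT3G18250 (r 0.971), the chitinase family gene AT1G02360 (r 0.963) and AT4G11670 (r 0.957). Their deviations from the group means had r from 0.927 to 0.972 with those of ALPHA-VPE. As their choice implies, all 5 had higher means in fum, by 0.21 to 0.68 on the log2 scale. None passed the test (limma adjusted p 0.176 to 0.369). Unadjusted limma p was below 0.05 in AT5G11350, AT3G18250 and AT1G02360, which largely follows from choosing genes like ALPHA-VPE. Over all probe sets tested, 8.87% were higher in fum at that level.

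For BETA-VPE they were AT5G05200 (r 0.951, rho 0.857), AT1G52630 (r 0.921), AT2G41020 (r 0.900), AT5G40710 (r 0.898) and the aminopeptidase gene APM1 (r 0.895). As in BETA-VPE, met replicates 1 and 2 were the 2 highest arrays in each of these genes, which largely follows from how they were chosen. Differences of these genes between groups lay between -0.24 and -0.14. For GAMMA-VPE they were ISU1, the scaffold protein for iron-sulfur clusters (r 0.929, rho 0.810), the alpha-galactosidase gene AT3G56310 (r 0.928), AT5G56190 (r 0.922), AT3G43230 (r 0.922) and AT3G07720 (r 0.911). Of these AT3G56310 was lower in fum (log2 -0.44, limma adjusted p = 0.0330), as were 1.11% of all probe sets tested. That call was not followed under the other settings. The others had -0.32 to -0.13 with limma adjusted p from 0.126 to 0.491. These shared signs largely follow from choosing genes like GAMMA-VPE. The likeness was weaker for deviations from group means, at 0.754 to 0.797.

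**Figure D4:**
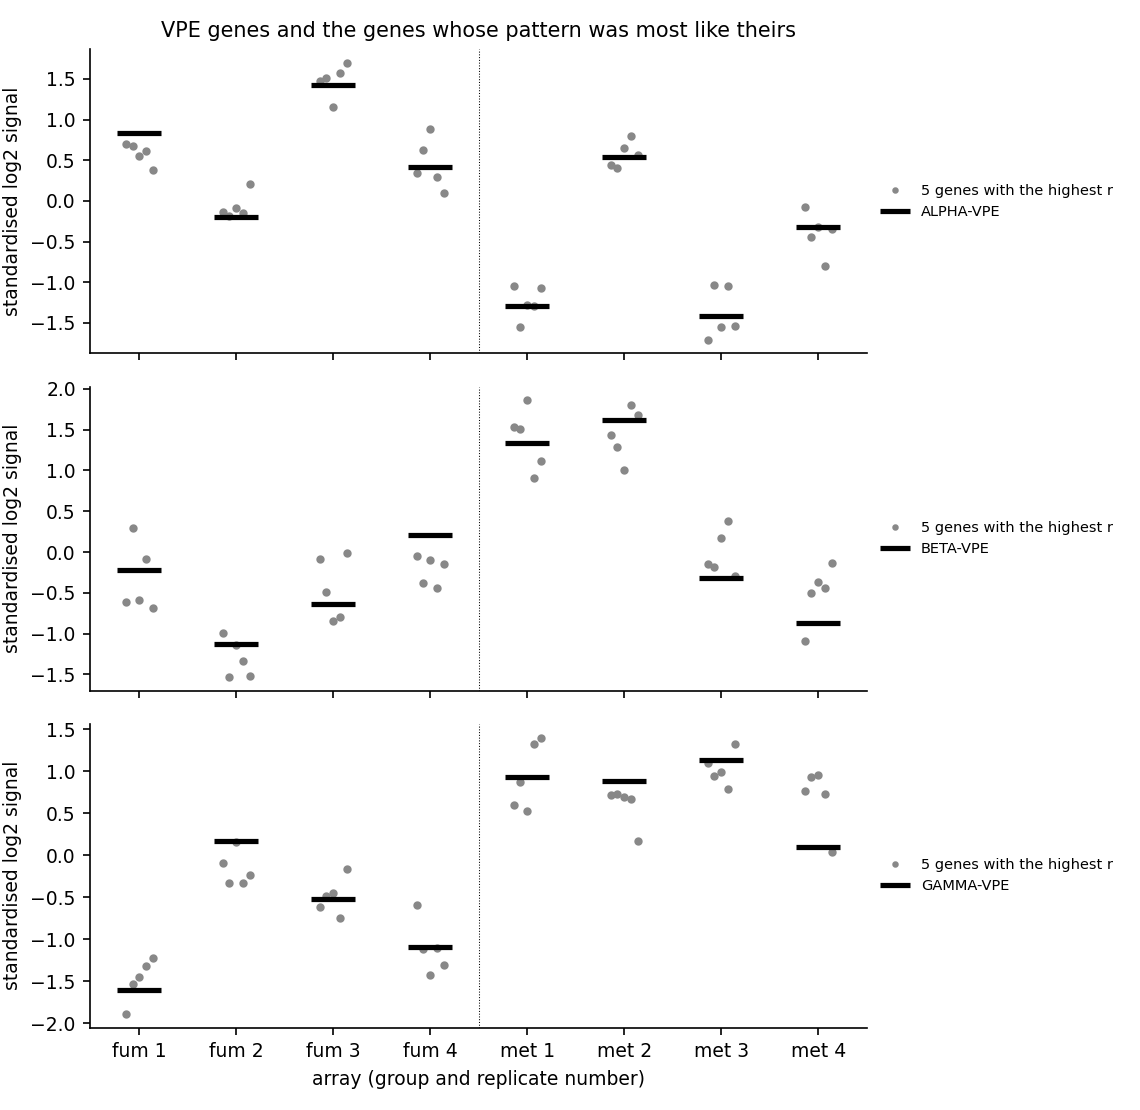
Log2 signal on each array, standardised to mean 0 and SD 1 for each gene (vertical axes), of each VPE gene (black bars) and of the 5 genes with the highest Pearson r to it (grey points), with fum arrays left and met arrays right of the dotted line. Fum replicate 3 is highest in the ALPHA-VPE set, met replicates 1 and 2 in the BETA-VPE set, and in the GAMMA-VPE set fum replicate 1 is the lowest array for all but AT3G07720.

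Other genes of the vacuole and of protease control gave 1 call. Of 23 genes for vacuolar and secretory proteases, 12 had a probe set of their own and 10 were tested. Of the tested genes 1 passed as higher in fum and 0 as lower. Their median log2 difference was 0.073, against -0.0021 over all probe sets tested. At an unadjusted limma p below 0.05 there was 1 in each direction. Over all probe sets tested, 8.87% were higher in fum at that level and 8.98% lower, and 1.47% and 1.11% passed the adjusted threshold. The gene that rose was AT4G01610, a cathepsin B protease, with means of 253 ± 15.65 (fum) and 172.3 ± 24.2 (met, SD, n = 4) and a log2 difference of 0.56 (limma adjusted p = 0.0305), and the call ended without fum replicate 1, 3 or 4 or met replicate 3 or 4 (adjusted p up to 0.104). Its call also ended after centring arrays on their median (adjusted p = 0.182), with no intensity trend (0.0723), with the replicate number as a block (0.125) and among the low 25S arrays (0.261). AT4G16190, a papain-like protease, had a mean of 879 ± 34.0 in fum and 1013 ± 37.4 in met with no overlap of the groups (log2 -0.21, limma adjusted p = 0.181). Groups that did not overlap were found in 12.4% of all probe sets tested. The cathepsin B gene AT1G02300 had means of 78.6 ± 9.86 (fum) and 66.5 ± 2.05 (met), a log2 difference of 0.23 (limma adjusted p = 0.366).

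**Figure D5:**
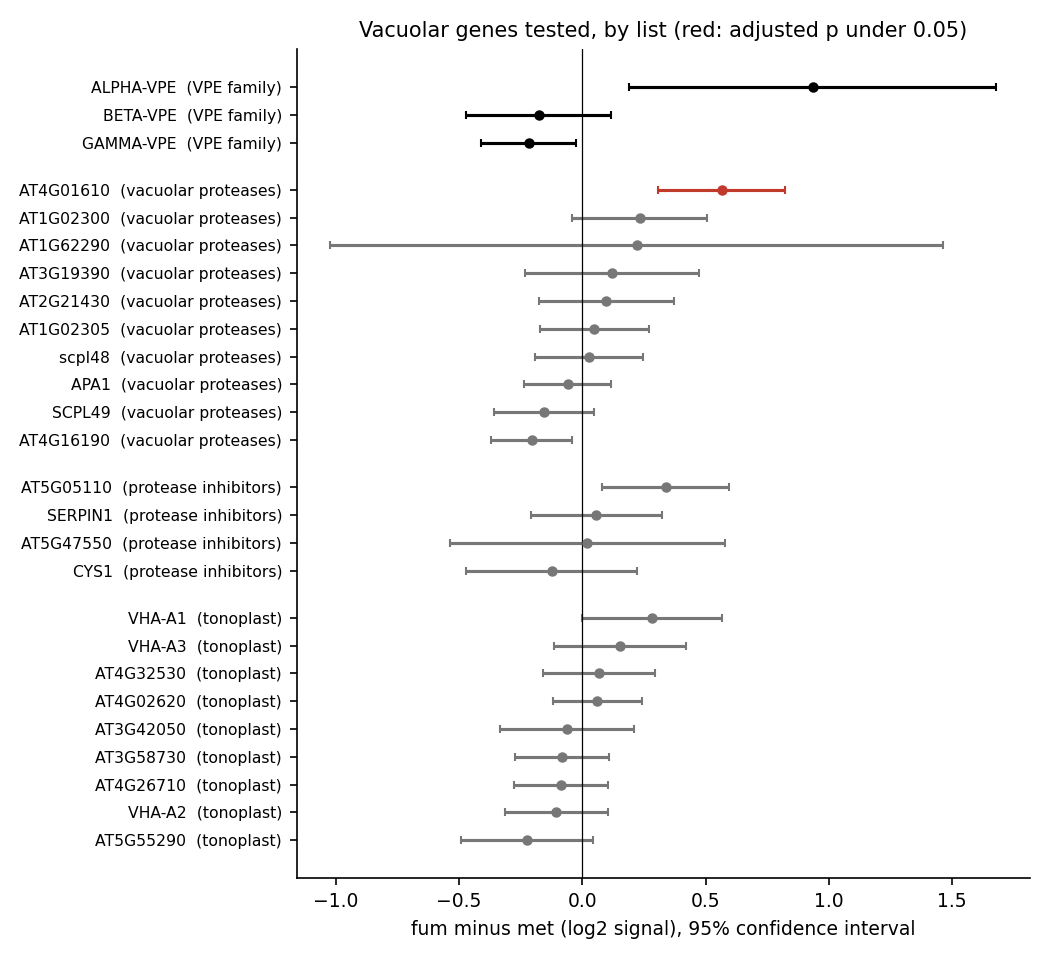
Fum minus met difference in log2 signal with its 95% confidence interval (horizontal axis) for each tested gene of the VPE family, vacuolar proteases, protease inhibitors and tonoplast lists, with red for an adjusted p under 0.05. AT4G01610 is the only gene in red, and ALPHA-VPE has the largest difference, 0.93, with an interval from 0.19 to 1.68.

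Protease inhibitors, among them the cystatins that block papain-like enzymes, had 4 of 8 genes tested and 0 passed with limma. Their median difference was 0.038. At an unadjusted limma p below 0.05, 1 was higher in fum, against 8.87% of all probe sets tested. It was the cystatin family gene AT5G05110, with means of 252 ± 30.2 (fum) and 199.5 ± 20.6 (met, SD, n = 4) and a log2 difference of 0.34 (limma adjusted p = 0.157). CYS1 had -0.12 and SERPIN1 0.056, and the sign of both turned in some fits. Of 37 genes for vacuolar proton pumps and tonoplast channels, 9 were tested, all of them proton pump subunits, and 0 passed with limma. No channel gene was measured. No tested gene had an unadjusted limma p below 0.05, against 17.9% of all probe sets tested, and the median was -0.062. VHA-A1, a proton pump subunit of the trans-Golgi network, had 0.28 (limma adjusted p = 0.28, unadjusted p = 0.05002). The tonoplast subunit VHA-A3 had 0.15 and the subunit e gene AT5G55290 -0.22.

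Lists of 12 vacuolar sorting genes, 10 metacaspase and proteasome genes and 6 xylem markers had no member with a probe set of its own in the annotation used here. Of 7 housekeeping genes 5 were tested with limma, and 0 passed, among them GAPC2 (log2 -0.087), AT2G28390 (-0.26) and TUB6 (0.10). None of the 5 reached an unadjusted limma p below 0.05, against 17.9% of all probe sets tested. The only measured gene of 6 senescence markers, SAG29, read 79.1 to 129.2 in fum and 63.8 to 114.3 in met (log2 0.17, limma adjusted p = 0.721), beside the higher ALPHA-VPE mean in fum, and its part was not tested. The 2 measured of 3 root hair markers, EXPA7 and EXPA18, were below the filter, with sums of 11.5 to 59.4 in fum and 16.7 to 36.5 in met.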

How the data were processed

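The authors deposited 1 table of linear signal values for 22810 probe sets on 8 arrays, made with MAS5 (no version given) per the submitters' processing notes. Other steps are not given in the sources used here, and depth has no meaning for arrays, whose number limits the precision. The 93 values of 0 were raised to 0.1, signals were taken to log2, 64 control probe sets were left out, and 13647 probe sets above the 40th percentile of mean log2 signal were tested with limma 3.58.1 in R 4.3.3 (lmFit, eBayes with an intensity trend, group as the only term). Folds are ratios of geometric means. Exact permutation tests used scipy 1.17.1. Names came from the annotation supplied with the data, updated by gene identifier through the RefSeq table of TAIR10.1, where 13436 of 13513 probe sets with 1 gene matched, and 503 with several genes were given no name. For a gene with several probe sets the brightest was taken.

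The 3 genes, the VPE family list and 12 other lists, of which 5 hold cell type markers, were chosen with earlier results of these data known. Genes named are the VPE family, in each list up to 3 genes of smallest p, and the 5 genes most like each VPE gene. Genes below the filter and some list members with a call or marker role were named in addition. Alternatives were quantile normalization, median centring, a pseudocount of 16, testing all probe sets or only those above the 60th percentile, eBayes with a robust prior or without the trend, weighting arrays, blocking on the replicate number, 25S signal as a covariate, as a block (under 2000 against above) and within its classes, and each array left out. The fit was also run on simulated arrays with independent normal noise and no array effects. That run does not cover differences among arrays such as those in 25S signal.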

Additional observations from a re-analysis of the deposited data

Results flagged for a closer look

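Of 40 groups of 4 arrays checked for an array far from the other 3, 2 were flagged, and chance flags about 1 in 20. None of the 6 groups of the 3 VPE genes was among them. The nearest was GAMMA-VPE in met, where replicate 4, at 465.9, stood off by a ratio of gap to range of 0.752 and fell short of the critical value. The reference gene AT2G28390 read 54.3 on fum replicate 2 and 116.3 to 122.5 on the other fum arrays. In met replicate 1 the actin 3′ probe set was 12.01 times as bright as the 5′ one, against 2.08 to 2.32 times for the remaining met arrays.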

How the results depend on the processing

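None of the 3 VPE genes passed the adjusted threshold in any limma fit run. ALPHA-VPE kept its sign in 21 alternatives, with differences from 0.68 to 1.36 and adjusted p from 0.0557, with array weights, to 0.369; the filter at the 60th percentile left it untested. GAMMA-VPE kept its sign in 22, with adjusted p from 0.0740 to 0.65. BETA-VPE turned to 0.044 among the arrays of high 25S signal and kept its sign in the other 21. These counts include settings that leave the difference itself unchanged, so no sign could turn there. They are the changes of filter, the fits without the trend or with a robust prior, the replicate block and the permutation test. The 351 probe sets that passed became 116 after median centring, 164 with no intensity trend, 1323 with array weights, 115 with the replicate number as a block, 789 with the 25S classes as a block, 148 and 45 within the high and low classes, and 112 to 415 when 1 array was left out. Fewer arrays entered the last of these fits, and fewer were compared within each 25S class. The count was 363 without met replicate 1 and 415 without met replicate 2. What caused the shifts was not tested. Deviations of same-numbered arrays had correlations of -0.168, -0.298, -0.473 and 0.140 for numbers 1 to 4. No consistent shared deviation by number was seen, but 4 values cannot exclude that the numbers pair the samples. The block is balanced over the groups and so leaves the VPE differences at 0.93, -0.18 and -0.22. Their limma adjusted p with it was 0.336, 0.651 and 0.383. The r of ALPHA-VPE with BETA-VPE turned to 0.26 without the 2 farthest arrays, 0.15 after centring and 0.28 for deviations from group means. The r of BETA-VPE with GAMMA-VPE turned to -0.46 without the 2 farthest arrays and -0.056 for deviations. Among other genes, CYS1 turned to 0.086 with array weights, 0.099 in the high 25S class and 0.019 without met replicate 1 (-0.23 to 0.019 over single omissions), SERPIN1 to -0.037 without fum replicate 3 (up to 0.14), AT5G55290 to 0.087 in the low 25S class, GAPC2 to 0.065 after quantile normalization, and AT2G28390 to 0.14 in the low class and 0.024 without fum replicate 2 (-0.38 to 0.024 over single omissions).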
